A study of Homo sapiens with 4 samples.

Results

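The S100 proteins are small calcium-binding proteins that work inside cells as regulators of other proteins and, when released, as signals to neighbouring cells. This account covers 10 of their genes, S100A2, S100A4, S100A6, S100A7, S100A8, S100A9, S100A10, S100A11, S100A13 and S100P. Every array probe set annotated to one of these genes alone was taken, whatever its values, which gave 14 probe sets of the 41097 annotated to 1 gene. The 10 genes stand among the 19775 that such probe sets represent.

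RNA came from SUM159 cells, a long-established line from a human breast cancer, which carried the pTRIPZ vector with an inducible mir-100, a microRNA, in all 4 groups. The cells were sorted on aldehyde dehydrogenase (ALDH) status, an activity by which stem-like cells of breast cancers are often enriched, and then kept in suspension. The groups were ALDH-positive cells with DOX, ALDH-positive control cells without it, ALDH-negative cells with DOX and ALDH-negative control cells without it, with 1 Affymetrix array each. The design text names the targets of mir-100 inside stem-like and other cells as the question. The sample titles and the treatment protocol name doxycycline, the drug that switches such vectors on, for 10 h, whereas the sample descriptions name doxorubicin, a different drug, and 13 h. DOX is used here for the treated cells. DOX-treated cells without the vector and the mature microRNA itself were not analysed here. Nothing in the labels gives separate cultures, so the p-values measure only how far these arrays lie apart, and that spread may be technical.

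S100 proteins pair into dimers, and each subunit has 2 EF-hands, the helix-loop-helix folds that hold calcium. Calcium opens a groove on most of them, which then grips a partner such as an annexin, a myosin or a transcription factor. Several are secreted and bind receptors, among them AGER (the receptor RAGE) and TLR4. In breast cancer cells S100A4 is known for its link with motility and metastasis, and S100A7, S100A8 and S100A9 for inflammatory signalling.

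The microRNA that the vector encodes is shown because it is the agent of the experiment. Its main strand lies on chromosome 11 at chr11:122152275-122152296, minus strand, in RefSeq's annotation of GRCh38.p14. Capitals mark the seed, bases 2 to 8, through which a microRNA pairs with its targets.
hsa-miR-100-5p: aACCCGUAgauccgaacuugug
Whether S100 transcripts hold matches to this seed was not analysed here.

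Values are log2 levels from RMA, which subtracts background, evens out the distributions of the arrays and merges the probes of a set. The array medians lay between 6.18 and 6.22, and a level of 6 was taken as the lower bound of a usable signal. A difference of 1 on the log2 scale is 2-fold, and a pair of arrays was called at that size where either of them reached level 6. With 1 array per group such calls have no replicate check and no p-value, the number of arrays limits their precision, and the order of a gene's 4 levels carries no measured spread. Genes with several probe sets are given by the one with the highest mean level. In RNA from many cells, fewer cells of a type and less RNA per cell cannot be told apart. All 8 listed markers of a mesenchymal cell line, VIM among them, reached level 6 in all 4 arrays.

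Some markers moved with the groups. Of the genes tied to the sort, ALDH1A1 was at 10.66 in ALDH-positive DOX against 10.86 in ALDH-negative DOX cells, and at 11.77 in ALDH-positive against 10.72 in ALDH-negative control cells. ALDH1A3 was at 6.64 in ALDH-positive DOX against 7.79 in ALDH-negative DOX cells, and at 6.48 in ALDH-positive against 5.86 in ALDH-negative control cells. Both sort genes were thus higher in ALDH-positive cells in controls and lower with DOX. Of 5 epithelial markers, ESRP1 was the one at level 6 in the ALDH-positive arrays, at 6.87 with DOX and 6.99 in controls, against 4.48 in ALDH-negative DOX and 3.91 in ALDH-negative control cells. KRT19 alone reached level 6 in ALDH-negative DOX cells (6.46), and no epithelial marker did in ALDH-negative controls. The summed epithelial levels were 27.1 and 26.6 in ALDH-positive DOX and control cells, against 24.4 and 22.7 in ALDH-negative DOX and control cells. Most levels in these sums lay under 6, and ESRP1 made up the larger part of both gaps. The sums therefore do not describe the 5 markers as a set. The part of these markers in the S100 differences between the fractions was not tested.

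Of the 14 probe sets, 10 reached level 6 in all 4 arrays and the 2 of S100A8 did so in the ALDH-positive DOX array only. Those of S100A7 and S100A9 stayed under it in every array. Of the 10 genes, 8 therefore entered the comparisons. Over the 4 arrays the levels spanned 1.68 log2 units for S100A4, 1.71 for S100P, 1.72 for S100A8 and 1.11 for S100A13, against 0.26 for S100A6 and 0.24 for S100A10 by their brightest probe sets.

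**Figure D1:**
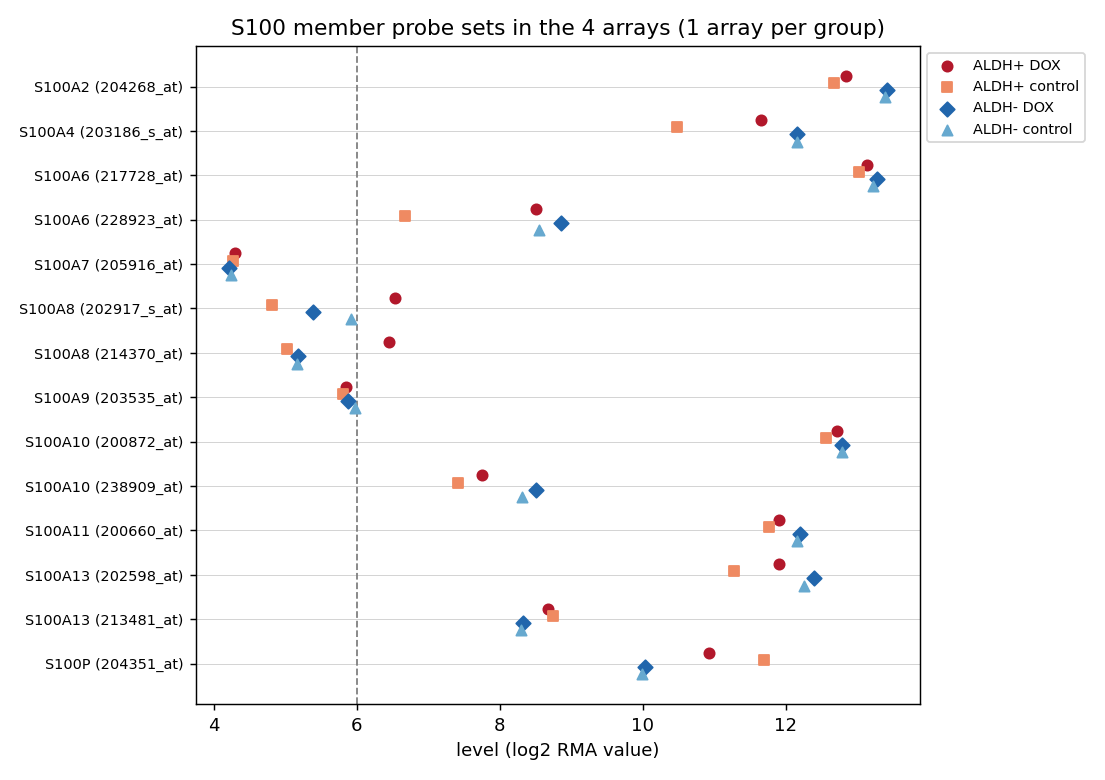
Log2 RMA level (x axis) of each of the 14 S100 probe sets (rows) in the 4 arrays, 1 point per array, with ALDH-positive DOX, ALDH-positive control, ALDH-negative DOX and ALDH-negative control by colour and shape. The dashed line marks level 6, and the S100A4, S100A6 (228923_at), S100A13 (202598_at) and S100P points stand apart for ALDH-positive control, while S100A7 and S100A9 stay left of the line.

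S100A4, also called metastasin, binds non-muscle myosin and is a widely used mesenchymal marker. Its probe set 203186_s_at had levels of 11.65 in ALDH-positive DOX cells and 10.47 in ALDH-positive control cells, against 12.15 in ALDH-negative DOX cells and 12.15 in ALDH-negative control cells. The ALDH-positive control array was thus the low one, and the ALDH-negative pair could hardly be told apart. S100A4 was 1.18 log2 units higher with DOX in ALDH-positive cells (2.27-fold) and 0.00 in ALDH-negative cells. Among 12151 genes compared in the ALDH-positive pair it ranked 230th from the highest, and 3.38% of genes differed at least as much in either direction. Between the fractions the difference of ALDH-positive minus ALDH-negative cells was -0.50 with DOX and -1.67 in controls, where S100A4 was 3.19-fold lower in ALDH-positive cells. That control difference ranked 127th from the lowest of 12052 genes. The only S100A4 probe set is of a kind that can bind several related transcripts, so no second one could be set beside it.

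The S100A4 gene occupies chr1:153543621-153545806 (GRCh38.p14), and its end overlaps that of S100A5. The 80 bases before its start, chr1:153545807-153545886, are shown because S100A4 and S100P were the 2 genes called between the control fractions. Capitals mark TATAAA, the core of a TATA box, which begins 31 bases before the start.
S100A4, minus strand: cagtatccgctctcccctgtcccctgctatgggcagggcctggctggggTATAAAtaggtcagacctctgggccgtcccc

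S100A13 helps to carry FGF1 and interleukin 1 alpha out of cells by a route without a signal peptide. Its probe set 202598_at had levels of 11.91 in ALDH-positive DOX cells and 11.27 in ALDH-positive control cells, against 12.39 in ALDH-negative DOX cells and 12.25 in ALDH-negative control cells. As with S100A4, the ALDH-positive control array was lowest and both ALDH-positive arrays lay below both ALDH-negative ones. The differences with DOX were 0.64 in the ALDH-positive fraction and 0.14 in the ALDH-negative one, and those of ALDH-positive against ALDH-negative cells were -0.48 with DOX and -0.98 in controls. The other S100A13 probe set, 213481_at, went the opposite way between the fractions. It had levels of 8.67 and 8.75 in ALDH-positive DOX and control cells, against 8.33 and 8.29 in ALDH-negative DOX and control cells, so that ALDH-positive cells were 0.34 higher with DOX and 0.46 higher in controls. The direction for S100A13 therefore rests on which probe set is read. S100A13 lies at chr1:153618799-153634361 and its interval contains that of S100A1.

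S100A2 is a nuclear member that binds p53 and is often lost in breast tumours. Its probe set 204268_at had levels of 12.83 and 12.67 in ALDH-positive DOX and control cells, against 13.41 and 13.39 in ALDH-negative DOX and control cells. Both ALDH-positive arrays lay below both ALDH-negative arrays, with differences of -0.57 with DOX and -0.72 in controls, and the DOX differences were 0.16 in ALDH-positive cells and 0.02 in ALDH-negative cells. S100A2 lies at chr1:153561108-153565844. The stretch before its first start, chr1:153565845-153565924, is shown because S100A2 was the only one of the 10 genes with TGANTCA, the AP-1 motif, in the 250 bases before a start; capitals mark the match.
S100A2, minus strand: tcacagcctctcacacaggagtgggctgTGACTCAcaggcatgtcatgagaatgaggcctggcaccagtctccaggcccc

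S100P binds ezrin inside cells and RAGE outside them, and was first found in placenta. Of the members at level 6 in all 4 arrays, it was the one whose representing probe set was higher in ALDH-positive cells in both pairs. Probe set 204351_at had levels of 10.93 in ALDH-positive DOX cells and 11.70 in ALDH-positive control cells, against 10.03 in ALDH-negative DOX cells and 9.99 in ALDH-negative control cells. Here the ALDH-positive control array was the high one. S100P was 0.90 higher in ALDH-positive cells with DOX (1.86-fold) and 1.71 higher in controls (3.28-fold), which ranked 208th from the highest of 12052 genes. The DOX differences were -0.77 in ALDH-positive cells and 0.04 in ALDH-negative cells, and 11.7% of genes differed at least as much in the ALDH-positive pair. S100P is also the only one of the 10 that lies off chromosome 1, at chr4:6693878-6697170. The bases before its start, chr4:6693798-6693877, hold TATAAA 28 bases before the start, in capitals.
S100P, plus strand: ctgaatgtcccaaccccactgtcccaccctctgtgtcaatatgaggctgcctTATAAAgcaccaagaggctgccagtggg

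By the probe set that stands for each gene, S100A10, S100A11 and S100A6 spanned the least among the genes at level 6 in every array, though other probe sets of S100A10 and S100A6 spanned more. S100A10, which forms a complex with annexin A2 and holds its partner without calcium, had levels by 200872_at of 12.72 and 12.55 in ALDH-positive DOX and control cells, against 12.78 and 12.79 in ALDH-negative DOX and control cells. Its other probe set 238909_at showed wider gaps, with 7.75 and 7.41 in ALDH-positive DOX and control cells, against 8.51 and 8.32 in ALDH-negative DOX and control cells. S100A11, a partner of annexin A1, had levels of 11.90 and 11.76 in ALDH-positive DOX and control cells, against 12.20 and 12.15 in ALDH-negative DOX and control cells. For both genes each ALDH-positive array lay below each ALDH-negative array, and the differences in controls were -0.39 for S100A11 and -0.24 for S100A10.

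S100A6, or calcyclin, is a cell-cycle-linked member that binds CACYBP. Its probe set 217728_at gave 13.13 and 13.02 in ALDH-positive DOX and control cells, against 13.27 and 13.21 in ALDH-negative DOX and control cells. At most 0.777% of all probe sets were brighter in any 1 array, so this probe set lies near the top of the scale, and how far it can still register a difference was not tested. The other S100A6 probe set, 228923_at, differed far more. It gave 8.51 in ALDH-positive DOX cells and 6.67 in ALDH-positive control cells, against 8.85 in ALDH-negative DOX cells and 8.54 in ALDH-negative control cells. The ALDH-positive control array again stood out as low, with a DOX difference in ALDH-positive cells of 1.84 (3.57-fold) and a difference from ALDH-negative control cells of -1.87 (3.66-fold). The 2 probe sets differ in the same direction in each of the 4 comparisons, but in size by over 1.5 log2 units in both that involve the ALDH-positive control array.

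S100A8 and S100A9 form calprotectin, the main calcium-binding protein of neutrophils, and S100A7, or psoriasin, is best known from inflamed skin. S100A8 crossed level 6 in ALDH-positive DOX cells alone. Its probe set 202917_s_at gave 6.54 in ALDH-positive DOX cells and 4.81 in ALDH-positive control cells, against 5.39 in ALDH-negative DOX cells and 5.92 in ALDH-negative control cells. The second, 214370_at, gave 6.46 in ALDH-positive DOX cells and 5.03 in ALDH-positive control cells, against 5.19 in ALDH-negative DOX cells and 5.16 in ALDH-negative control cells. In ALDH-positive cells S100A8 was thus 1.72 higher with DOX by one probe set and 1.43 by the other. Both start from levels under 6, and with such levels set to 6 the differences came to 0.54 (1.45-fold) and 0.46 (1.37-fold), under the size called. The difference of -0.52 by 202917_s_at with DOX in ALDH-negative cells lay wholly under level 6 and gives no direction.

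The partner of S100A8 stayed just under level 6 in every array, and S100A8 passed that bound in ALDH-positive DOX cells only. S100A9 gave 5.85 and 5.81 in ALDH-positive DOX and control cells, against 5.88 and 5.97 in ALDH-negative DOX and control cells. S100A7 stayed between 4.22 and 4.30. None of 12 myeloid markers, such as PTPRC, LYZ and CSF1R, reached level 6 in any array, and their summed levels were 55.8 in ALDH-positive DOX, 56.5 in ALDH-positive control, 55.7 in ALDH-negative DOX and 54.9 in ALDH-negative control cells. Of 10 markers of keratinocyte differentiation, 8 had a probe set, and KRT10 and SPRR1A reached level 6 in every array. Their summed levels were 42.7 in ALDH-positive DOX, 43.4 in ALDH-positive control, 44.1 in ALDH-negative DOX and 43.7 in ALDH-negative control cells. Sums of levels mostly under 6 do not show whether such cells were present, and the part of other cells in the S100A8 signal was not tested.

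S100A8 has 3 annotated starts within chr1:153390032-153422583, an interval that overlaps that of S100A7A. The stretch before the second start, chr1:153391074-153391153, and that before the start of S100A9, chr1:153357774-153357853, are set side by side because the 2 genes encode the subunits of one complex. Both hold TATAAA, in capitals, 29 bases before the start.
S100A8, minus strand: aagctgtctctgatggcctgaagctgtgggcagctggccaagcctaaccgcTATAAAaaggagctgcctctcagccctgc
S100A9, plus strand: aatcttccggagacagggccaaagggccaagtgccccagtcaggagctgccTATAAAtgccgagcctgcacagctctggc
On either strand, TATAAA occurred in the 250 bases before a start of 6 of the 10 genes, namely S100A4, S100A7, S100A8, S100A9, S100A13 and S100P. The share was 13.0% of the 27305 genes in the same RefSeq table, and for TGANTCA it was 8.06%. The 6 include genes that reached level 6 in all arrays, in 1 array and in none, and a match describes letters only.

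By their representing probe sets, most detected genes of the 10 read lower in ALDH-positive than in ALDH-negative cells, with S100P as the exception in both pairs. In controls, 6 of the 7 genes compared were lower in ALDH-positive cells and 1 was higher. The called ones were S100P in the higher direction, where 6.09% of all genes were called, and S100A4 in the lower, where 4.4% were. The median of the 7 was -0.39, against -0.00 over all genes compared. By probe set, 228923_at of S100A6 (-1.87) passed 2-fold as well, where 5.19% of probe sets did so in that direction. With DOX, 6 of 8 were lower in ALDH-positive cells, with a median of -0.22 against 0.08 over all genes. The one gene called in that pair was S100A8, 1.14 higher, where 11.4% of all genes were called higher and 5.32% lower. With levels under 6 set to 6 that difference was 0.54.

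**Figure D2:**
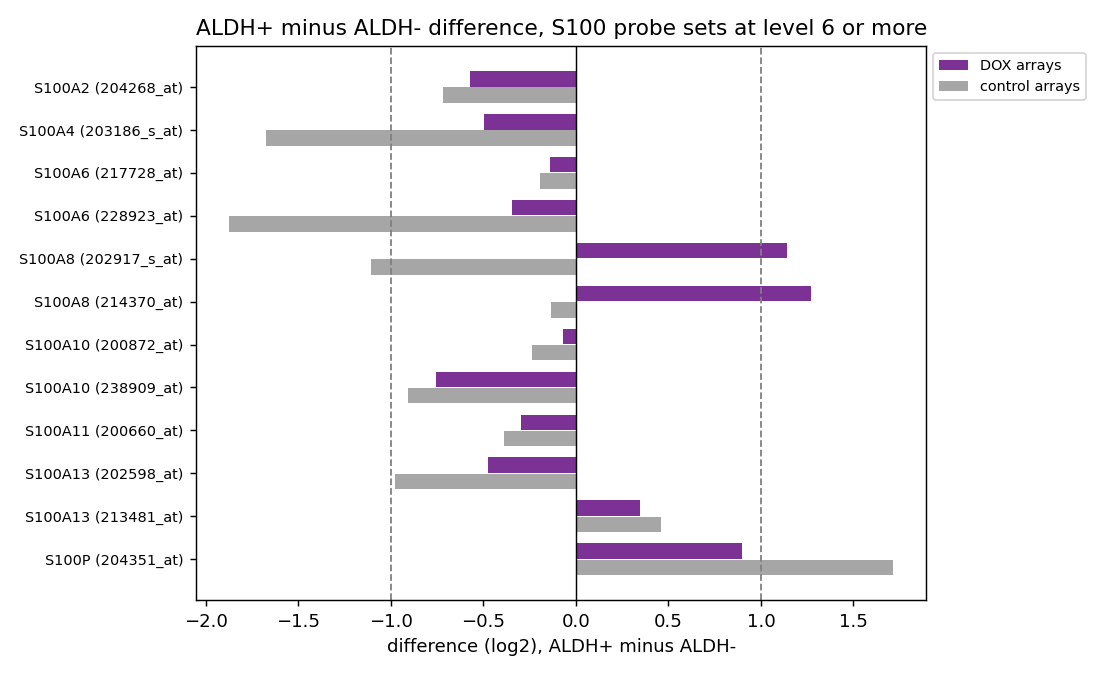
Log2 difference of ALDH-positive minus ALDH-negative cells (x axis) for the 12 S100 probe sets that reached level 6 in at least 1 array, with bars for the DOX arrays and the control arrays (1 array per group, no error bars). Dashed lines mark 2-fold, and S100P (1.71), S100A4 (-1.67) and S100A6 by 228923_at (-1.87) pass them in controls. S100A8 by 202917_s_at also does (-1.11), but both of its control levels lie under 6.

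The mean difference between the fractions was tested with limma in an additive model of ALDH and DOX, in which each treatment repeats the other. Of the 8 genes tested, 3 were lower and 1 higher in ALDH-positive cells at an adjusted p under 0.05, whereas 9.58% of all 12365 genes passed as lower and 13.5% as higher. S100A2 was lower, at -0.65 ± 0.08 log2 units (SE, 4 arrays, 1.56-fold, limma adjusted p = 0.000251). S100A4 was lower, at -1.09 ± 0.23 (2.12-fold, limma adjusted p = 0.00483), and so was S100A13 by its brighter probe set, at -0.73 ± 0.15 (1.66-fold, limma adjusted p = 0.00488). S100P was higher by 1.31 ± 0.23 (2.47-fold, limma adjusted p = 0.002). Each of these 4 had its direction in both pairs of arrays. S100A2 had the smallest difference of the 4 and the smallest p; its pairs gave -0.57 with DOX and -0.72 in controls, whereas those of S100A4 gave -0.50 and -1.67.

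The other S100 genes did not pass. The limma differences were -0.34 ± 0.13 for S100A11 (adjusted p = 0.0809), -0.17 ± 0.08 for S100A6 (adjusted p = 0.153), -0.15 ± 0.10 for S100A10 (adjusted p = 0.303) and 0.02 ± 0.42 for S100A8 (adjusted p = 0.986). The first 3 were lower in both pairs. The median over the 8 was -0.25, against 0.03 over all genes tested. When each probe set was fitted as a row of its own, 228923_at of S100A6 was at -1.11 ± 0.38 (limma adjusted p = 0.0882), 238909_at of S100A10 at -0.83 ± 0.27 (limma adjusted p = 0.0771) and 213481_at of S100A13 at 0.40 ± 0.27 (limma adjusted p = 0.346). With the mean of its probe sets S100A13 came to -0.16 and limma gave an adjusted p of 0.593. The limma call for S100A4 was lost without the filter on level (adjusted p = 0.084), without the trend in the variance (0.0854) and without the DOX term (0.117). The same settings ended that for S100A13, with limma adjusted p-values of 0.0569, 0.0875 and 0.087. S100A2 lost its call without the trend (limma adjusted p = 0.0847) and kept it under the other 10 alternatives, and S100P passed under all 11.

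**Figure D3:**
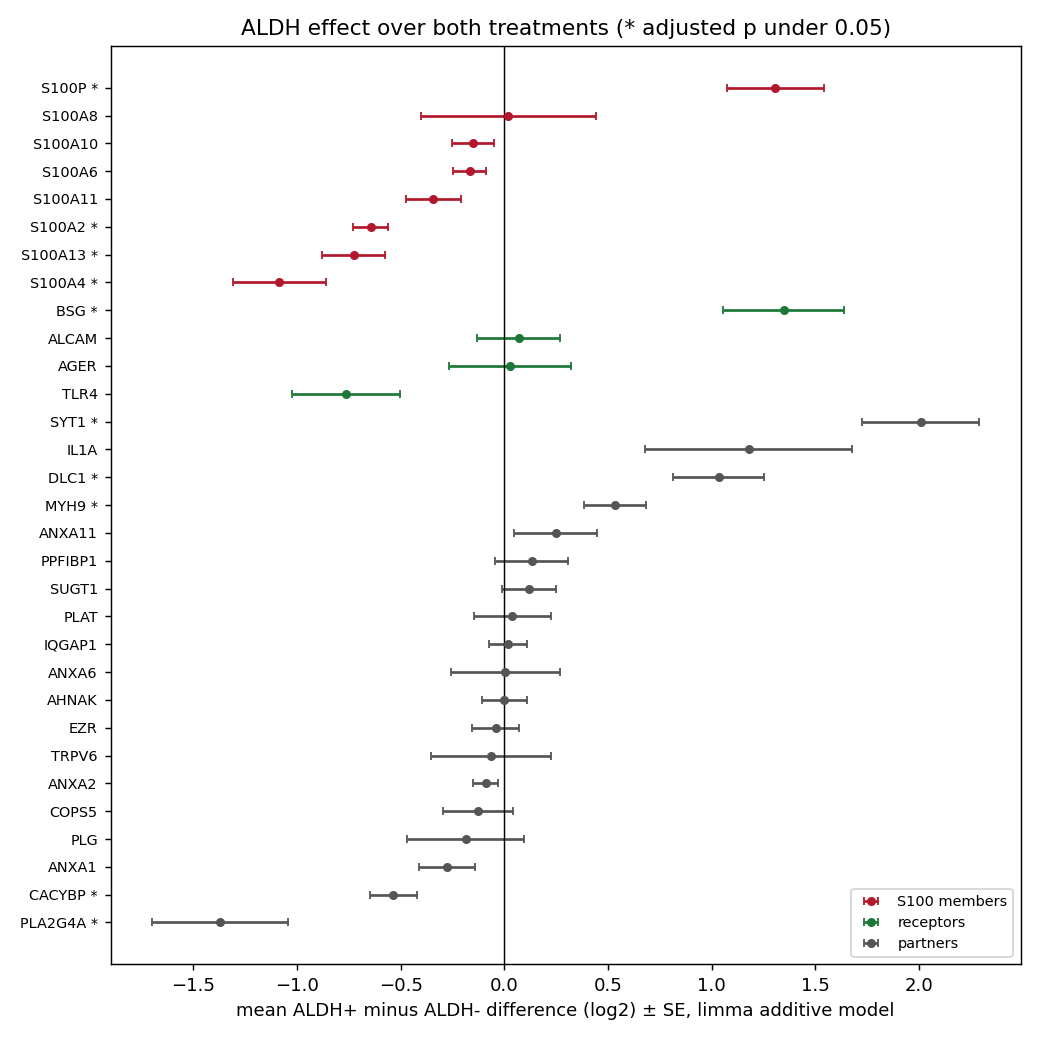
Mean log2 difference of ALDH-positive minus ALDH-negative cells with its SE (x axis) from the limma model over 4 arrays, for the S100 genes, their receptors and their partners (rows). An asterisk marks an adjusted p under 0.05, which S100A2, S100A4 and S100A13 reach to the left of 0 and S100P to the right.

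With DOX, S100A4 differed by over 2-fold in ALDH-positive cells, S100A8 did so only when measured from levels under 6, and no S100 gene did in ALDH-negative cells. In the ALDH-positive pair 7 of 8 genes were above 0, and S100A4 (1.18) and S100A8 (1.72) were called higher, where 3.47% of all genes were called higher and 2.3% lower. S100A8 entered through the ALDH-positive DOX array alone, and with levels under 6 set to 6 it was at 0.54 and no longer called. The median of the 8 was 0.16, against 0.12 over all genes. Of the 12 probe sets, 4 passed 2-fold as higher, that of S100A4, 228923_at of S100A6 (1.84) and, from levels under 6, both of S100A8, where 3.28% of all probe sets did so. By the representing probe sets, S100P, at -0.77, was the only one of the 8 below 0. In the ALDH-negative pair the 7 genes compared lay between -0.01 and 0.14, none was called, and 0.322% of all genes were.

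**Figure D4:**
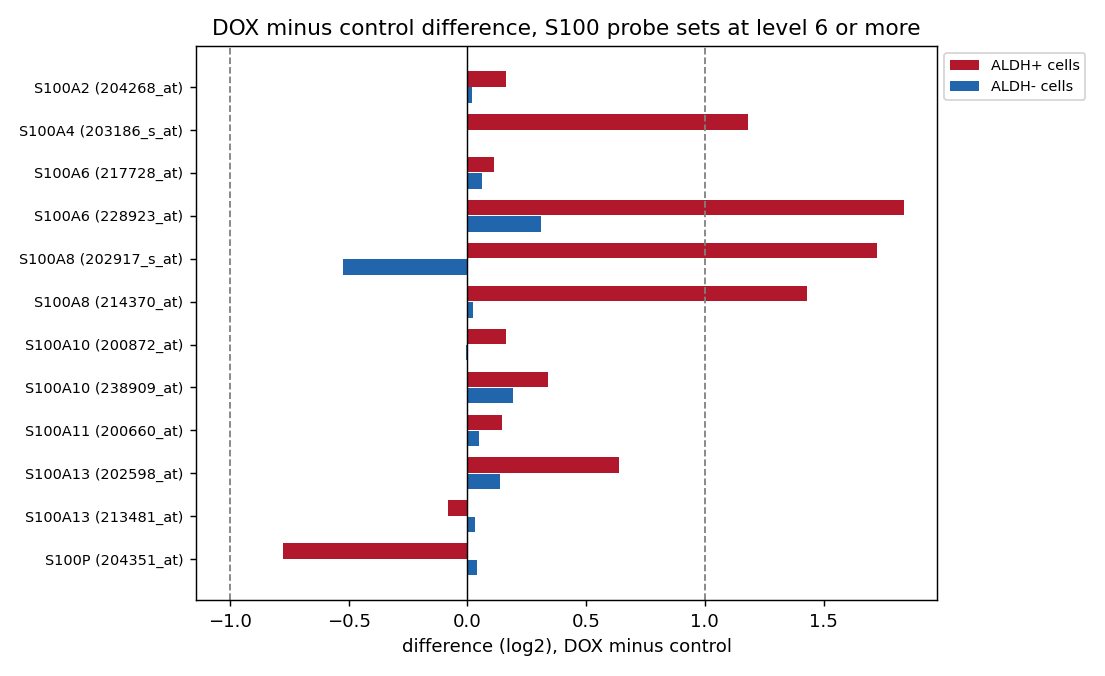
Log2 difference of DOX minus control (x axis) for the same 12 S100 probe sets, with bars for ALDH-positive and ALDH-negative cells (1 array per group, no error bars). S100A4, 228923_at of S100A6 and both S100A8 probe sets pass the dashed line of 2-fold in ALDH-positive cells, and no probe set passes it in ALDH-negative cells.

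The mean DOX difference over both fractions passed for none of the 8 genes, with limma adjusted p-values between 0.855 and 0.944. Over all 12365 genes, 1 gene (0.00809%) passed. At an unadjusted p under 0.05 limma gave 2 of the 8, S100A4 at 0.59 ± 0.23 and S100A13 at 0.39 ± 0.15, and 5.27% of all genes. This model treats a response that differs between the fractions as error.

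Set against each other, the DOX differences of ALDH-positive and ALDH-negative cells were 2.25 apart for S100A8 and 1.18 apart for S100A4. Both were called higher, where 3.78% of 12365 genes were. S100A8 ranked 6th from the highest, but with levels under 6 set to 6 the gap was 0.54. The gap was -0.82 for S100P and 0.50 for S100A13, and 228923_at of S100A6 had 1.53. With 1 array per group no residual spread was left, so these gaps were not tested. The ALDH-positive control array enters the DOX comparison of its fraction and the ALDH comparison of controls, so the values above for S100A4, S100A6 by 228923_at and S100P in those 2 comparisons are not independent.

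The ALDH-positive DOX array also differed from its control in control RNA. The 18S ribosomal RNA probe sets differed with DOX by -1.94 at the 5' end and by -1.90 at the 3' end in ALDH-positive cells, and by 0.20 and 0.45 in ALDH-negative cells. The 18S probe set of the middle differed less, by -0.30 in ALDH-positive and by 0.07 in ALDH-negative cells. The gap between the 3' and 5' probe sets of ACTB was 3.50 in ALDH-positive DOX and 3.11 in ALDH-positive control cells, against 3.87 in ALDH-negative DOX and 3.70 in ALDH-negative control cells. That of GAPDH was 0.33 in ALDH-positive DOX and 0.56 in ALDH-positive control cells, against 0.98 in ALDH-negative DOX and 0.87 in ALDH-negative control cells, so with DOX in ALDH-positive cells the gap was wider for ACTB and narrower for GAPDH. Both gaps were smaller in each ALDH-positive array than in each ALDH-negative array. For ALDH-positive minus ALDH-negative cells, 18S differed with DOX by -1.81 at the 5' end and -1.29 at the 3' end. In controls these differences were 0.34 and 1.06, and the middle differed by -0.29 with DOX and 0.08 in controls. The part of these differences in the S100 results, those between the fractions included, was not tested.

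Of the 10 genes, 9 lie within 1.65 Mb of chromosome 1, from S100A10 at 151982915 to the end of S100A13 at 153634361 (GRCh38.p14). In ALDH-positive against ALDH-negative control cells, 6 of 6 compared chromosome 1 members were below 0, while S100P on chromosome 4 was above 0. The median of the 6 was -0.55, against -0.00 over all genes compared. With DOX, 6 of 7 chromosome 1 members were below 0 and S100A8 above. In the DOX comparison of ALDH-positive cells 7 of 7 members were above 0, by a median of 0.16, against 0.12 over all genes compared. S100A13 by 213481_at was at -0.08 there. Of 29 genes with a probe set in that stretch that carry no S100 name, 1 was compared in each pair, and it was at 0.02 between the control fractions.

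**Figure D5:**
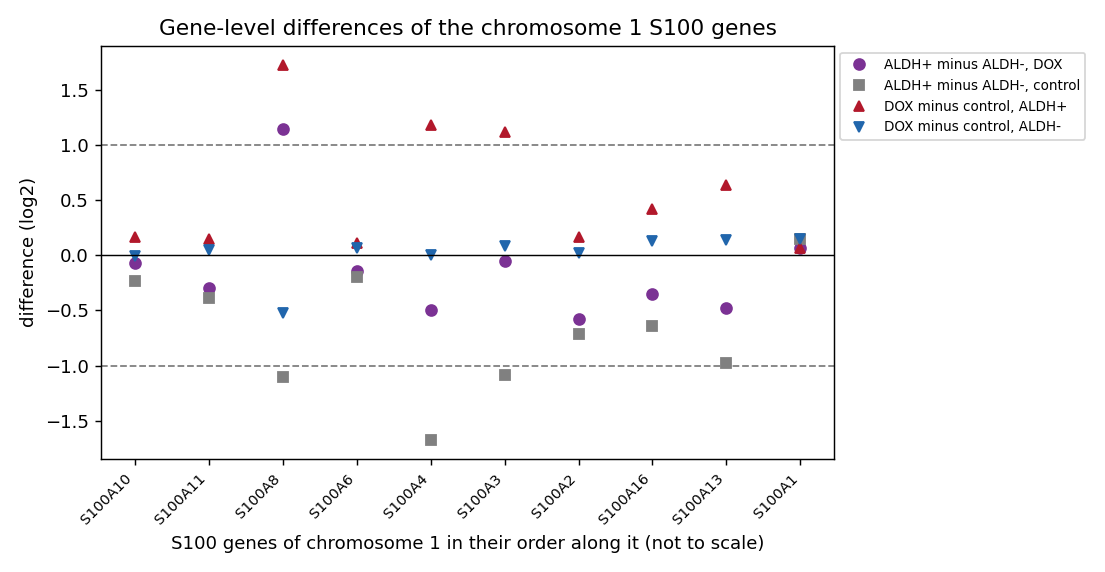
Log2 differences (y axis) of the detected S100 genes of chromosome 1 in their order along it (x axis, not to scale) in the 4 comparisons of 2 arrays, 1 point per comparison. S100A4 stands lowest for ALDH-positive against ALDH-negative controls. S100A8 (-1.11, both control levels under 6) and S100A3 (-1.09), the neighbour of S100A4, come next. These genes also pass 2-fold for DOX in ALDH-positive cells, S100A8 from a level under 6.

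A list of 18 further S100 and S100-fused genes held 15 with a probe set, of which S100A1, S100A3 and S100A16 reached level 6. S100A3, the next gene along from S100A4, had levels of 8.15 in ALDH-positive DOX cells and 7.03 in ALDH-positive control cells, against 8.20 in ALDH-negative DOX cells and 8.12 in ALDH-negative control cells. Its low array was the same as that of S100A4. S100A3 was called higher with DOX in ALDH-positive cells (1.12) and lower in ALDH-positive than in ALDH-negative controls (-1.09), but limma gave -0.57 ± 0.31 for the mean ALDH difference (adjusted p = 0.209). S100A16 was lower in ALDH-positive cells in both pairs, at -0.50 ± 0.11 (limma adjusted p = 0.00567), and S100A1 was at 0.11 (limma adjusted p = 0.834). Thus 1 of the 3 passed as lower and none as higher, where 9.58% of all genes passed as lower and 13.5% as higher.

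Of 6 receptors linked to S100 proteins, 4 were detected, and 1 passed as higher and none as lower between the fractions, where 13.5% and 9.58% of all genes did. BSG (basigin), a receptor for S100A9, had levels of 10.88 in ALDH-positive DOX cells and 9.72 in ALDH-positive control cells, against 8.96 in ALDH-negative DOX cells and 8.94 in ALDH-negative control cells. It was higher in ALDH-positive cells by 1.35 ± 0.29 (limma adjusted p = 0.00611), and with DOX it was called higher in ALDH-positive cells (1.16). TLR4, a receptor for calprotectin, had levels of 8.90 and 8.81 in ALDH-positive DOX and control cells, against 9.43 and 9.82 in ALDH-negative DOX and control cells, and missed the threshold at -0.77 ± 0.26 (limma adjusted p = 0.0521). By size TLR4 was called lower in ALDH-positive than in ALDH-negative controls (-1.01). All 4 TLR4 probe sets were lower in ALDH-positive cells in both pairs, whereas BSG rests on 1 probe set of the kind that can bind several transcripts.

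Of 25 intracellular and surface partners, 19 were tested, and 3 passed as higher and 2 as lower in ALDH-positive cells, where 13.5% of all genes passed as higher and 9.58% as lower. SYT1, which joins S100A13 in the release complex, was higher by 2.01 ± 0.28 (limma adjusted p = 0.000397). It entered the test through its ALDH-positive levels alone, 6.15 with DOX and 6.30 in controls. In ALDH-negative cells SYT1 was at 4.28 with DOX and 4.15 in controls, both under level 6. The size and p-value of its difference rest on those levels and are uncertain, and so is its place among the 3 that passed as higher. DLC1, a tumour suppressor that S100A10 binds, was higher by 1.03 ± 0.22 (limma adjusted p = 0.00565), though 1 of its 4 probe sets at level 6 in controls went the other way. PLA2G4A, the phospholipase that frees arachidonic acid, was lower, at -1.37 ± 0.33 (limma adjusted p = 0.0103). IL1A, described below, had the third largest difference of the list but did not pass, at 1.18 ± 0.50 (limma adjusted p = 0.108). The partner of S100A6, CACYBP, was lower, at -0.54 ± 0.11 (limma adjusted p = 0.00509), with 3 of 4 probe sets lower in the DOX pair. The myosin MYH9, the partner of S100A4, was higher by 0.53 ± 0.15 (limma adjusted p = 0.022). CACYBP and MYH9 were named after their values were seen. The median of the 19 was 0.01, against 0.03 over all genes tested.

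By the probe set that stands for each gene, annexin A2 varied as little as S100A10. ANXA2 levels were 13.65 and 13.60 in ALDH-positive DOX and control cells, against 13.75 and 13.68 in ALDH-negative DOX and control cells. This ANXA2 probe set is of the kind that can bind several transcripts and lies near the top of the scale. How far it can still register a difference was not tested. The brightest ANXA2 probe set outside that kind differed more for ALDH-positive minus ALDH-negative cells, by -0.40 in controls and -0.35 with DOX. For S100A10 the other probe set gave -0.91 in controls and -0.76 with DOX. With DOX in ALDH-positive cells 2 of 17 compared partners were called lower and none higher, where 2.3% of all genes were called lower and 3.47% higher. PLA2G4A had levels of 5.83 in ALDH-positive DOX cells and 7.41 in ALDH-positive control cells, against 7.82 in ALDH-negative DOX cells and 8.16 in ALDH-negative control cells. IL1A, the cytokine that leaves cells with S100A13, had levels of 8.56 in ALDH-positive DOX cells and 10.86 in ALDH-positive control cells, against 8.90 in ALDH-negative DOX cells and 8.16 in ALDH-negative control cells. The ALDH-positive control array was thus high for IL1A, where it was the lowest for S100A13 by 202598_at and the highest by 213481_at. IL1A differed by -2.30 with DOX in ALDH-positive cells and by 2.70 between the fractions in controls by a probe set of the shared kind, and its other probe set stayed under level 6.

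Likeness was measured for the 4 S100 genes that spanned at least 1 log2 unit, as the root mean square distance over the 4 arrays after each gene was centred on its mean. Nearest to S100A4 were SLC4A11 (0.0496 log2 units), AKR1E2 (0.0614) and EXOC7 (0.064). Nearest to S100A13 were PRR5 (0.023), NSF (0.034) and TEX261 (0.035), and nearest to S100P were CYRIA (0.0359), GAB2 (0.0676) and ZEB1-AS1 (0.073). S100A8 had FTX at 0.0499 and then TRHDE-AS1 at 0.151 and HYMAI at 0.161. With 4 arrays many genes lie close to any profile, so these names describe the 4 values only.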

How the data were processed

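The deposited values are log2 probe set levels of Affymetrix arrays, made with RMA by the authors per the submitters' processing notes, with no version stated in the sources at hand. RMA evens out the distributions of the arrays, so a shift shared by most genes would not be seen. All 4 columns were matched to a sample by their names. The values were used without further scaling. Probe sets annotated to 1 gene were kept, 41097 in all, and each gene was represented by its brightest one on average. Of 19775 genes, 12365 reached level 6 in at least 1 array.

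Pairs of arrays were compared by the log2 difference and called at 2-fold with level 6 in at least 1 array of the pair. An additive model of ALDH and DOX was fitted over the 12365 genes with the lmFit and trended eBayes functions of limma 3.58.1, run in R 4.3.3, with 1 residual and 11.6 prior degrees of freedom. Tests were two-sided, with Benjamini-Hochberg adjustment over all genes, and the steps were tested on simulated data. The simulated noise was scaled to the spread of the ALDH-negative pair. No DOX response that differs between the fractions was simulated, so how the model fares with one was not tested. Other work and the figures used matplotlib 3.10.9, pandas 2.3.3 and numpy 2.4.6 under Python 3.11.15.

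The S100 genes and the lists were chosen with earlier results of these data known. All 10 genes were named. Of the S100, receptor and partner lists at most the 4 members with the largest difference were named per comparison, and beside them CACYBP and MYH9, which passed the ALDH model and were named after their values were seen. For likeness the 3 nearest genes were named. Alternatives were other array scaling (median centring, cyclic loess), other filters on level (none, level 7, levels under 6 set to 6), other use of probe sets (their mean, without names ending in _x_at or _s_at, all as rows), 1.5-fold as the size, eBayes robust or with no trend, and a model without the other term. Sequences and positions are RefSeq's, GRCh38.p14, and all 10 genes had a promoter there. Protein sequences and target sites were not analysed here.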

Additional observations from a re-analysis of the deposited data

Results flagged for a closer look

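By the probe set that stands for each gene, the DOX difference of 3 S100 genes had opposite signs in the fractions. Each fraction held 1 DOX and 1 control array, and the difference was not tested. S100A8 differed by 1.72 in ALDH-positive and by -0.52 in ALDH-negative cells, which are 2.25 apart, but both ALDH-negative levels lay under 6. S100P differed by -0.77 in ALDH-positive and by 0.04 in ALDH-negative cells, a gap of -0.82. S100A10 differed by 0.16 in ALDH-positive and by -0.01 in ALDH-negative cells, a gap of 0.17, and the ALDH-negative value turned positive under some settings, the range being -0.01 to 0.09.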

How the results depend on the processing

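Of 433 values of single S100 genes under alternative settings, 417 kept their direction and side of the threshold or moved little. A further 8 lost their limma call, 8 moved and 0 of the called ones reversed. For differences between arrays the tally compared sizes only. With no filter or at level 7 these are the main values again, so their agreement was fixed in advance. Most others also stay unchanged where levels under 6 are set to 6 or shared probe sets are left out. The S100A8 calls lost at level 7 are thus not among the 8 lost calls, and those lost with levels under 6 set to 6 count as moved. Uncalled values near 0 did change sign, namely DOX in ALDH-negative cells for S100A10 (-0.01 to 0.09) and S100A4 (-0.01 to 0.01) and the ALDH effect for S100A8 (-0.01 to 0.57). No paired analysis was possible because each group had 1 array and so no replicate numbers to pair, apart from the ALDH and DOX terms, which already compare within treatment and within fraction. Among S100 genes, the 2 called higher with DOX in ALDH-positive cells became 1 at level 7, 1 with levels under 6 set to 6 and 1 without shared probe sets, and the same 3 settings left 1 of 2 in the gap between the DOX differences. At 1.5-fold, 1 was lower in each of these 2 comparisons. In ALDH-positive against ALDH-negative controls the 1 called lower became 2 with centred arrays, 2 without a filter, 2 with the mean of probe sets, 3 at 1.5-fold and 0 without shared probe sets, which leaves S100A4 with no value. With DOX the 1 called higher became 0 at level 7, 0 with levels under 6 set to 6 and 2 at 1.5-fold. In the ALDH model the 3 that passed as lower became 1 without a filter, 0 without the trend and 1 without the DOX term. S100A6 by the mean of its probe sets was at 0.98 with DOX in ALDH-positive cells and at -1.03 between the control fractions, and S100A13 at -0.26. S100A8 without shared probe sets had a gap of 1.41.

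Over all genes, DOX in ALDH-positive cells called 422 higher and 280 lower, against 248 higher with the mean of probe sets, and 1780 higher and 829 lower at 1.5-fold. DOX in ALDH-negative cells called 32 higher and 6 lower, against 2 lower at level 7, 2 lower with levels under 6 set to 6, 18 higher and 3 lower with the mean of probe sets, and 136 higher and 73 lower at 1.5-fold. At 1.5-fold the ALDH comparison called 1664 higher and 1478 lower in controls (734 and 530 at 2-fold) and 2805 higher and 1542 lower with DOX (1396 and 650 at 2-fold). The gap between DOX differences called 468 higher and 297 lower, against 270 higher with the mean of probe sets, and 1827 higher and 927 lower at 1.5-fold. The ALDH model passed 1672 higher and 1184 lower, against 767 and 410 without a filter, 998 and 529 without the trend, and 1083 and 674 without the DOX term. The DOX model passed 1 gene, against 4 at level 7 and 0 without a filter, with levels under 6 set to 6, without the trend, with all probe sets as rows, or without the ALDH term. Beyond fewer or more genes tested, the cause was not tested. Signals near the background limit S100A7, S100A8 and S100A9, and 1 array per group limits all values.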
